A study of Mus musculus with 4 samples.

Results

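The genes of MHC class II antigen presentation were followed through single-cell RNA sequencing of murine lung adenocarcinoma. The 8 genes were taken by symbol from 28006 features of the count matrices, and all 8 were found in each of the 4 libraries. They are H2-Aa, H2-Ab1 and H2-Eb1, which encode chains of the peptide-presenting molecules, H2-DMa, H2-DMb1 and H2-DMb2, which encode chains of the peptide-exchange factor H2-M, Cd74, the invariant chain, and Ciita, the transactivator of the class II genes.

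Tumours had been started by an adenovirus, Ad5-mSPC-FlpO, that makes Flp recombinase under the surfactant protein C promoter, so that recombination begins in cells in which that promoter is active. All mice carried KrasFSF-G12D, p53frt and Rosa-FSF-CreERT2, on a mixed 129/B6 background. KP mice, the controls, were Foxa1flox/+ and Foxa2flox/+, and KPF1F2 mice were labelled Foxa1flox and Foxa2flox, so both groups hold floxed alleles of these genes for forkhead factors of endoderm-derived organs. Both received tamoxifen at 120 mg/kg in 4 daily injections from week 10 of tumour growth, and tumours were taken at week 12. The age of the mice is not given in the sources used here. Dissociated tumour cells were run either before or after magnetic removal of CD45+ cells (leukocytes) and CD31+ cells (endothelium). This makes 4 groups with 1 library each: KP pre-depletion, KPF1F2 pre-depletion, KP post-depletion and KPF1F2 post-depletion. There are no replicates, so no test was possible, every difference given is between libraries, and the intervals are 95% and cover counting error only.

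The libraries held 4415 to 8536 barcodes and 47805086 to 63010016 unique molecular identifiers (UMIs, counts of captured RNA molecules). After filtering, 2475 to 3616 cells were kept per library, with medians of 7089 to 16410 UMIs. Epithelial-like cells, named from general epithelial genes, numbered 559 in KP pre-depletion, 189 in KPF1F2 pre-depletion, 2429 in KP post-depletion and 1667 in KPF1F2 post-depletion, with median depths of 24071, 22838, 13262 and 21394 UMIs. They held Epcam, an epithelial adhesion molecule, at 660.0 to 844 CPM (UMIs of a gene relative to all UMIs of the cells summed) and Nkx2-1, the lung lineage factor, at 145 to 192 CPM. Foxa1 and Foxa2 counted under their own identifiers had 0 UMIs in every library, and so did 2 of 5 added features that carry these identifiers with a suffix. Of the added features, Foxa1_2 stood at 16.7, 9.95, 16.7 and 3.53 CPM and Foxa1_1 at 4.33, 5.16, 2.72 and 7.99 CPM in the library order above, and Foxa2_1 had 2, 0, 3 and 8 UMIs. What stretch of a gene each piece covers is not stated, so they check the labels only in part. The libraries of the genotypes also came from mice of different sex, since Xist was at 662 and 705 CPM in KP but at 0.184 and 0.301 CPM in KPF1F2, before and after depletion. The title of the KPF1F2 pre-depletion library carries another run number than the other titles, and the labels do not say whether the libraries of a genotype share mice. Genotype, sex, animal and, before depletion, run cannot be told apart in what follows.

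MHC class II molecules are pairs of an alpha and a beta chain that show peptides from the endosomal system to CD4 T cells. The invariant chain Cd74 holds the new pair and steers it to the endosome, where H2-M removes the last fragment of Cd74 and helps select the peptide. Dendritic cells, B cells and many macrophages make these genes constitutively, and interferon gamma can switch them on in other cells through Ciita, which binds no DNA itself but docks on factors at the X and Y boxes of their promoters. In the lung, alveolar type 2 cells, the surfactant makers from which such adenocarcinomas can start, are known to express class II genes at steady state. Mice of the b haplotype, such as C57BL/6, make no E alpha chain, and H2-Ea was not analysed here. Whether the mixed-background mice made surface E molecules therefore cannot be read from H2-Eb1.

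Of the 8 genes, 6 lie in the class II region of chromosome 17 in the mm10 (GRCm38) assembly: H2-DMa on the plus strand at chr17:34119541-34139101, H2-DMb2 at chr17:34143307-34151555, H2-DMb1 at chr17:34153072-34160230, H2-Ab1 at chr17:34257689-34269419, H2-Aa on the minus strand at chr17:34282744-34287823 and H2-Eb1 on the plus strand at chr17:34305867-34316674. Ciita lies at chr16:10480059-10528418 on the plus strand. These 7 and Cd74 are annotated as protein coding. The features Brd2, Dexi and Gm20513 overlap H2-DMa, Ciita and H2-Eb1 on the opposite strand, and how strand was treated in counting is not given in the sources used here. In epithelial-like cells Gm20513 had 1 to 3 UMIs per library, so it bears little on H2-Eb1. Brd2 had 130.0 to 190.0 CPM and Dexi 18.4 to 26.8 CPM, so levels of H2-DMa and Ciita are uncertain to the extent that such reads could be exchanged.

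Promoter stretches of 4 members are shown before the levels. The part of these stretches in the levels described further on was not tested. RefSeq promoters (GRCm38.p6, 250 bases before to 50 after each start) were at hand for 5 of the 8 members, namely H2-Aa, H2-Eb1, H2-DMa, H2-DMb1 and H2-DMb2. The 4 windows of 90 bases below read 5′ to 3′ on the gene's strand, with capitals for GATTGG, the inverted CCAAT core of the Y box that NF-Y binds, and for GATGATGC, a word at the place of the X2 box, which lies upstream of the Y box and is bound by CREB family factors. They lie at chr17:34287847-34287936 on the minus strand (H2-Aa), and on the plus strand at chr17:34305743-34305832 (H2-Eb1), chr17:34153065-34153154 (H2-DMb1) and chr17:34145094-34145183 (H2-DMb2).
H2-Aa: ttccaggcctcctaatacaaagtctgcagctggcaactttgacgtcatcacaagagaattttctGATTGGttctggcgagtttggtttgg
H2-Eb1: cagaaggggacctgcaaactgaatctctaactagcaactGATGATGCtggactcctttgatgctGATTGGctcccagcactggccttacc
H2-DMb1: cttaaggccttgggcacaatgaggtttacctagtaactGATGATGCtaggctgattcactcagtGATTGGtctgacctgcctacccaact
H2-DMb2: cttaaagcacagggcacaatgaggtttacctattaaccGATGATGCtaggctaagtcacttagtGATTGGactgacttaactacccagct

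Searched on both strands, GATTGG occurred in all 5 member promoters and in 16.11% of 32851 RefSeq promoters of that length. GATGATGC occurred in 3 of the 5 (H2-Eb1, H2-DMb1 and H2-DMb2) and in 231 promoters, or 0.7032%. No other spelling of the X2 box was searched, so a promoter without this word, such as that of H2-Aa, may still hold the box. The words do not overlap. Both in this order with at most 40 bases between them stood in 10 promoters (0.03044%), among them those 3 members. The gap between the words was 17 bases in H2-Eb1 and 18 bases in both H2-DMb1 and H2-DMb2. The Y box began 49, 60, 62 and 91 bases before the RefSeq start in H2-Aa, H2-Eb1, H2-DMb1 and H2-DMb2. The gene spans above are from GENCODE, and for H2-DMb1 and H2-DMb2 they start further upstream, so those windows lie mostly or wholly within the spans. The H2-DMb1 and H2-DMb2 windows were identical at 76 of 90 positions, against 27 to 31 of 90 for every other pair of the 4 windows. A match is a description of letters, and binding was not measured.

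Epithelial-like cells after depletion, where free leukocyte RNA was lowest, held more class II RNA in the KPF1F2 library than in the KP library. Summed over the 8 genes the level was 3713 CPM in KP and 10085 CPM in KPF1F2, a ratio of 2.72 (2.70 to 2.73). Of the 8 genes, 7 reached the minimum mean of 20 CPM, and 5 were at least 2-fold higher in KPF1F2, where 4.91% of 5703 genes were. H2-DMb2 reached the minimum through its KPF1F2 level alone in both depletion states, so it had to differ to be counted, and 4 of the other 6 were 2-fold higher. The median log2 fold of the 7, with 1 CPM added on each side, was 1.62, against 0.08 for all genes compared. In summed values, fewer cells that make a gene and less RNA per cell cannot be told apart.

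Among the chain genes, H2-Aa, the alpha chain of I-A, stood at 665 CPM in KP pre-depletion, 1633 in KPF1F2 pre-depletion, 397 in KP post-depletion and 1233 in KPF1F2 post-depletion. Both KPF1F2 libraries were above both KP libraries, with a log2 fold of 1.63 after depletion and 1.30 before. Its partner H2-Ab1, the beta chain of I-A, had 649, 1533, 446 and 1368 CPM in that order, with log2 folds of 1.62 after and 1.24 before depletion. H2-Eb1, the beta chain of I-E, had 262, 824, 155 and 639.9 CPM. Of the 8 members it showed the widest ratio after depletion, 4.12 (4.01 to 4.24), with log2 folds of 2.04 after and 1.65 before.

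Of the peptide-exchange chains, H2-DMa, the alpha chain, had 81.4, 154, 63.6 and 122 CPM in KP pre-depletion, KPF1F2 pre-depletion, KP post-depletion and KPF1F2 post-depletion. H2-DMb1, one of the alternative beta chains, had 107, 173, 79.0 and 143 CPM. These 2 were the measured members that stayed under 2-fold in both states, with log2 folds of 0.93 and 0.84 after depletion and 0.91 and 0.69 before. H2-DMb2, the other beta chain, had 15.6, 62.6, 10.7 and 36.4 CPM, with log2 folds of 1.68 after and 1.94 before depletion. H2-DMb1 and H2-DMb2 are close paralogs and their split is uncertain in principle, although the last 500 bases of their transcripts share no run longer than 34 bases.

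Cd74, on the plus strand at chr18:60803848-60812652 in the same assembly, was the most abundant member by UMIs. Its level was 3470 CPM in KP pre-depletion, 8242 in KPF1F2 pre-depletion, 2553 in KP post-depletion and 6529 in KPF1F2 post-depletion, with log2 folds of 1.35 after and 1.25 before depletion. Ciita was scarce, with 182, 47, 377 and 601 UMIs or 9.98, 8.66, 8.91 and 12.9 CPM, and it did not reach the minimum. Its ratio was 1.45 (1.27 to 1.66) after depletion and 0.868 (0.616 to 1.20) before, so its groups overlapped within counting error before depletion. Ciita thus differed less between the genotypes than the genes it activates.

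Before depletion the median log2 fold of the 7 measured members was 1.25, against 0.12 for all genes, and 5 of them were at least 2-fold higher where 5.11% of 5638 genes were. Within a genotype the members' median log2 fold of post-depletion over pre-depletion was −0.49 in KP and −0.34 in KPF1F2. In these pooled cells, whose make-up by cluster varied by library, the members thus differed less between depletion states than between genotypes. In cluster 0, which both genotypes shared and which is described below, that fold was −0.18 in KP and −0.30 in KPF1F2. Its genotype medians were 0.01 after and 0.27 before depletion, so the order did not hold there. TMM scaling, which assumes that most genes are equal, moved the median of all genes before depletion from 0.12 to −0.02 and that of the members from 1.25 to 1.11. The split of all genes at least 2-fold higher and lower was 288 and 155 before depletion as given, and 215 and 207 with TMM scaling.

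The epithelial-like cells fell into 10 clusters of full depth, built without the 8 members and without the neighbouring class II genes H2-Oa, H2-Ob and H2-Eb2. Several were almost confined to a genotype: clusters 3 and 5 to KP, with 702 and 620 cells after depletion against 0 and 7 in KPF1F2, and clusters 2 and 8 to KPF1F2, with 801 and 391 cells against 3 and 7. With 1 library per group, a cluster mostly of 1 library may be that library and not a cell state. Class II levels varied widely across these clusters within each genotype.

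The highest class II levels were in cluster 2, a KPF1F2 cluster led by Sftpd, S100g, Aqp5 and Ager, genes of alveolar type 2 and type 1 cells. After depletion it held H2-Aa at 2383 CPM, H2-Ab1 at 2790 CPM, H2-Eb1 at 1308 CPM and Cd74 at 12834 CPM. Its H2-DMa, H2-DMb1 and H2-DMb2 stood at 225, 246 and 75.9 CPM, and its Ciita at 24.6 CPM. The 82 cells of this cluster before depletion repeated the pattern at a summed 24143 CPM, against 19887 CPM after. Cluster 2 made up 48.1% of the epithelial-like cells and 37.8% of their UMIs in KPF1F2 post-depletion, and held 74.5% of their class II UMIs.

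Cluster 0, led by Retnla, Sftpa1, Sftpd, Cxcl15 and Sftpc, was the one large cluster that both genotypes shared, with 637 KP and 370 KPF1F2 cells after depletion. These surfactant and secreted genes are those of alveolar type 2 cells. Its class II levels differed little between genotypes: H2-Aa was at 1104 CPM in KP and 1263 in KPF1F2, H2-Ab1 at 1110.1 and 1116, and Cd74 at 5922 and 5824. The sum was 8834 and 9017 CPM. None of its 7 measured members was 2-fold higher in KPF1F2, where 2.59% of genes in that cluster were, and their median log2 fold was 0.01. H2-Eb1 departed most, at 365 and 486 CPM (ratio 1.33, 1.27 to 1.40). In the pre-depletion cells of cluster 0 the median was 0.27 and again no measured member was 2-fold higher.

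The tamoxifen-dependent Cre, read as UMIs of the CRE-ERT2 transgene, was low in cluster 0, at 8.43 CPM, against 23.9 to 54.5 CPM in clusters 2, 3, 5 and 8. A cell without such a UMI can still carry the allele. In KPF1F2 post-depletion 4 of 370 cluster 0 cells had a CRE-ERT2 UMI. In the KP library, 76 cluster 0 cells with a CRE-ERT2 UMI held 8860 CPM of class II UMIs and 561 without held 8828 CPM. In cluster 2, 276 cells with such a UMI held 20061 CPM and 525 without held 19721 CPM. In the keratin-led cluster 8, 270 cells with such a UMI held 814 CPM and 121 without held 1152 CPM. In cluster 5 of KP, also keratin-led, 305 cells with it held 413 CPM and 315 without held 552 CPM. Cells with such a UMI were deeper, with medians of 14663 against 8840 UMIs in KP cluster 0 and 27258 against 13597 in cluster 2. The split therefore cannot show whether class II levels vary with the transgene.

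Cluster 19, led by Ager, Cldn18 and Clic5, genes of alveolar type 1 cells, was the other shared cluster of this kind, with 146 KP and 34 KPF1F2 cells after depletion. Its H2-Ab1 was at 896 CPM in KP and 839 in KPF1F2 and its Cd74 at 4837 and 4965 CPM. None of 6 measured members was 2-fold higher in KPF1F2, where 7.09% of genes were, and the median log2 fold was −0.03.

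The cycling cluster 25, which holds cells with Mki67 and other division genes and is led by Retnla, Sftpd and Cxcl15, did differ. Whether its cells were otherwise of the same state in both libraries was not tested. Its KP part (53 cells) held H2-Aa at 498 CPM, H2-Eb1 at 205 and Cd74 at 3262, and its KPF1F2 part (54 cells) held 1423, 739 and 6904 CPM. Of 7 measured members 5 were at least 2-fold higher in KPF1F2, where 6.44% of genes were, with a median log2 fold of 1.16. H2-DMa and H2-DMb1 were again the ones under 2-fold, at 115 and 155 CPM and at 134 and 186 CPM.

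Clusters 5 and 8, each led by the simple-epithelial keratins Krt7, Krt8 and Krt18, were poor in class II RNA. Cluster 5 of KP held H2-Aa at 26.7 CPM, H2-Ab1 at 45.3 CPM and Cd74 at 349 CPM. Cluster 8 of KPF1F2, with Aqp5 and Msln also among its leading genes, held 63.6, 77.2 and 624 CPM. Fibroblast-like cells, which should lack these genes, held H2-Ab1 at 19.5 CPM (KP) and 38.8 CPM (KPF1F2) after depletion, below clusters 5 and 8 of the same libraries. Cluster 8 made up 23.5% of the KPF1F2 epithelial-like cells after depletion but 3.15% of their class II UMIs, and cluster 5 made up 25.5% of the KP cells and 3.69% of those UMIs.

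Between these extremes stood cluster 3 of KP, led by Gkn2, Sftpb and Sftpc with Krt18 also among its leading genes, with H2-Aa at 369.8 CPM, H2-Ab1 at 456 and Cd74 at 2826. Cluster 23 of KP, led by Sftpc and Sftpa1 with Lcn2 and Dlk1, was higher, at 832, 829.9 and 5090 CPM. The lowest levels were in the small clusters 38 (26 cells, led by the club cell gene Scgb1a1) and 29 (94 cells, led by Timp1), with summed class II levels of 255 and 138 CPM. In cluster 29 Cd74 (52.7 CPM) was no higher than H2-Ab1 (56.3 CPM), while it was higher in each other full-depth cluster with 20 or more cells after depletion. H2-Aa in cluster 29 was at 8.89 CPM.

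**Figure D1:**
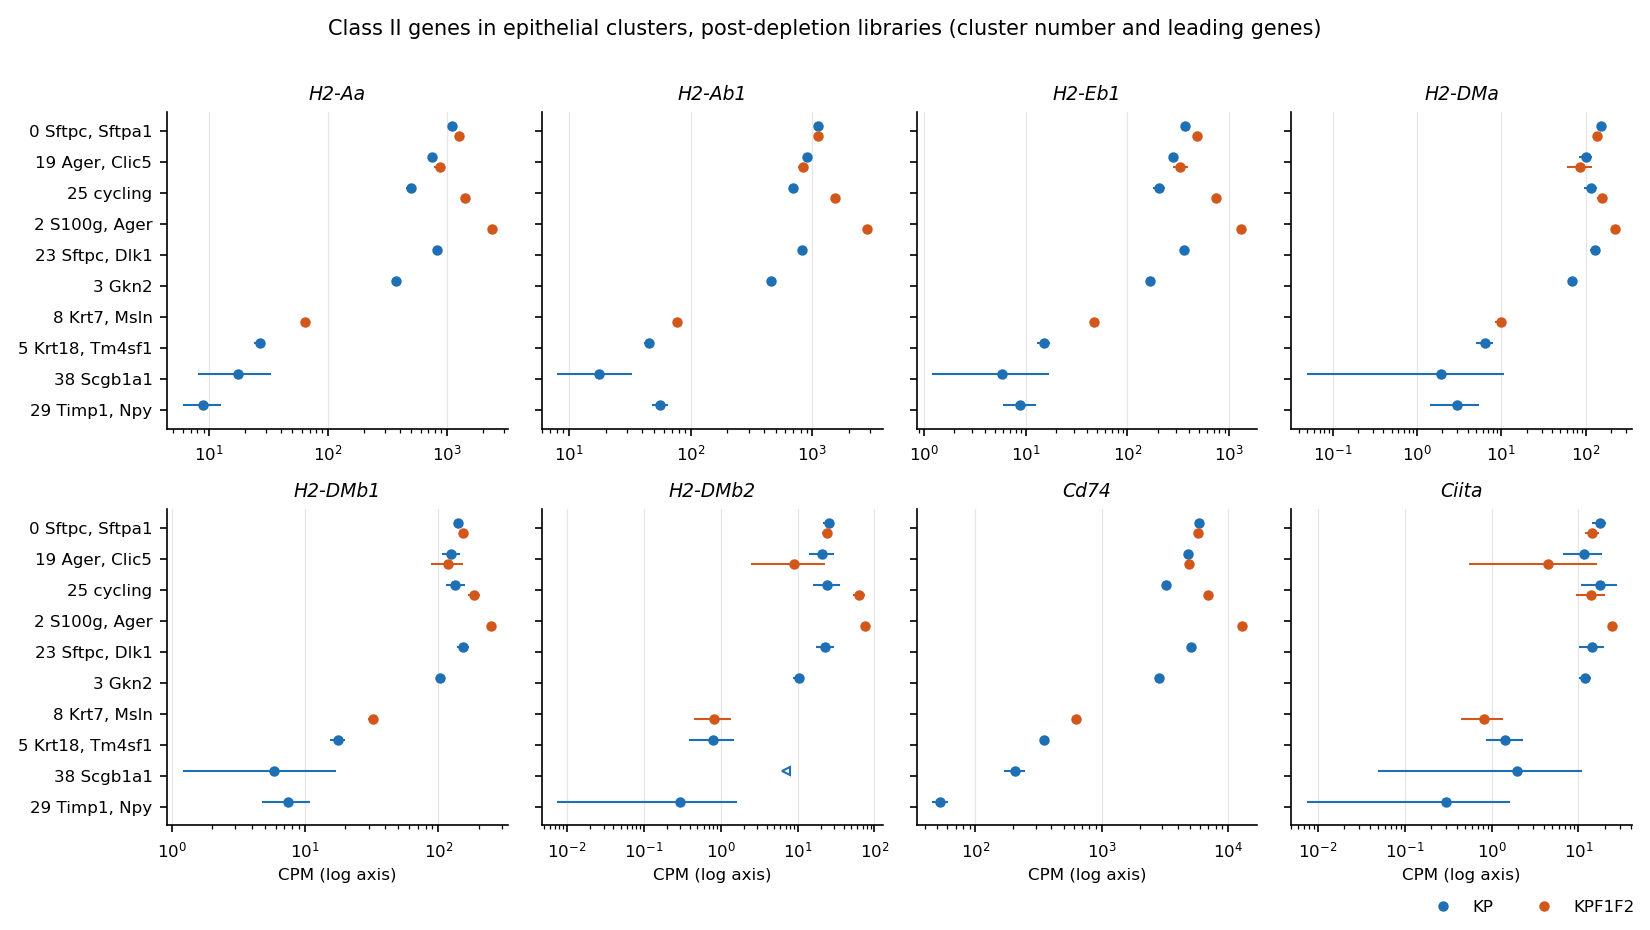
Level of each class II gene (CPM, log axis) in the epithelial clusters of the post-depletion libraries, clusters with at least 20 cells, named by number and leading genes. Points are summed cells of 1 library, bars are exact 95% Poisson intervals (counting error only), and an open triangle marks the upper limit of a gene with 0 UMIs. In every gene panel KPF1F2 cluster 2 is the highest point, clusters 0 and 19 of both genotypes lie close together for the abundant genes, and clusters 5, 8, 38 and 29 lie far to the left.

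Leaving cluster 2 out of the epithelial-like cells lowered the members' median log2 fold after depletion from 1.62 to 0.14, and no measured member was then 2-fold higher. Without cluster 0 the median was 2.15. These choices were made after the data had been seen. The summed log2 ratio went from 1.44 to 0.17 without cluster 2. Cluster 2 held 74.5% of the class II UMIs of KPF1F2 epithelial-like cells after depletion and 0.730% of those of KP. Leaving it out therefore had to lower the ratio. Clusters 3 and 5, nearly confined to KP, stayed in. The remainder thus compares unlike mixtures of clusters and does not by itself locate the difference.

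Class II RNA was also read in single cells thinned to 5000 UMIs each, which leaves out 326 KP and 215 KPF1F2 cells after depletion. The median number of class II UMIs per thinned cell was 18 in KP (2103 cells) and 50 in KPF1F2 (1452 cells). Cells with at least 50 such UMIs made up 12.1% in KP and 50.2% in KPF1F2, and cells with 5 or fewer made up 33.5% and 21.1%. The KPF1F2 library therefore held both many high cells and many low ones.

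By cluster, the median was 43 in KP and 41 in KPF1F2 for cluster 0, and 95.5 in cluster 2, where 85.2% of cells had at least 50. It was 18 in cluster 3 and 1 in both cluster 5 and cluster 8, of which 88.9% and 79.6% of cells had 5 or fewer. T-like cells before depletion also had a median of 1, in both libraries. Cells of cluster 25 had a median of 24 in KP and 59 in KPF1F2. In cluster 19 the medians were 29 in KP (106 thinned cells) and 37 in KPF1F2 (25 thinned cells). Cells with 5 or fewer made up 7.55% and 36% there, so its near-equal sums do not mean that single cells were alike.

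**Figure D2:**
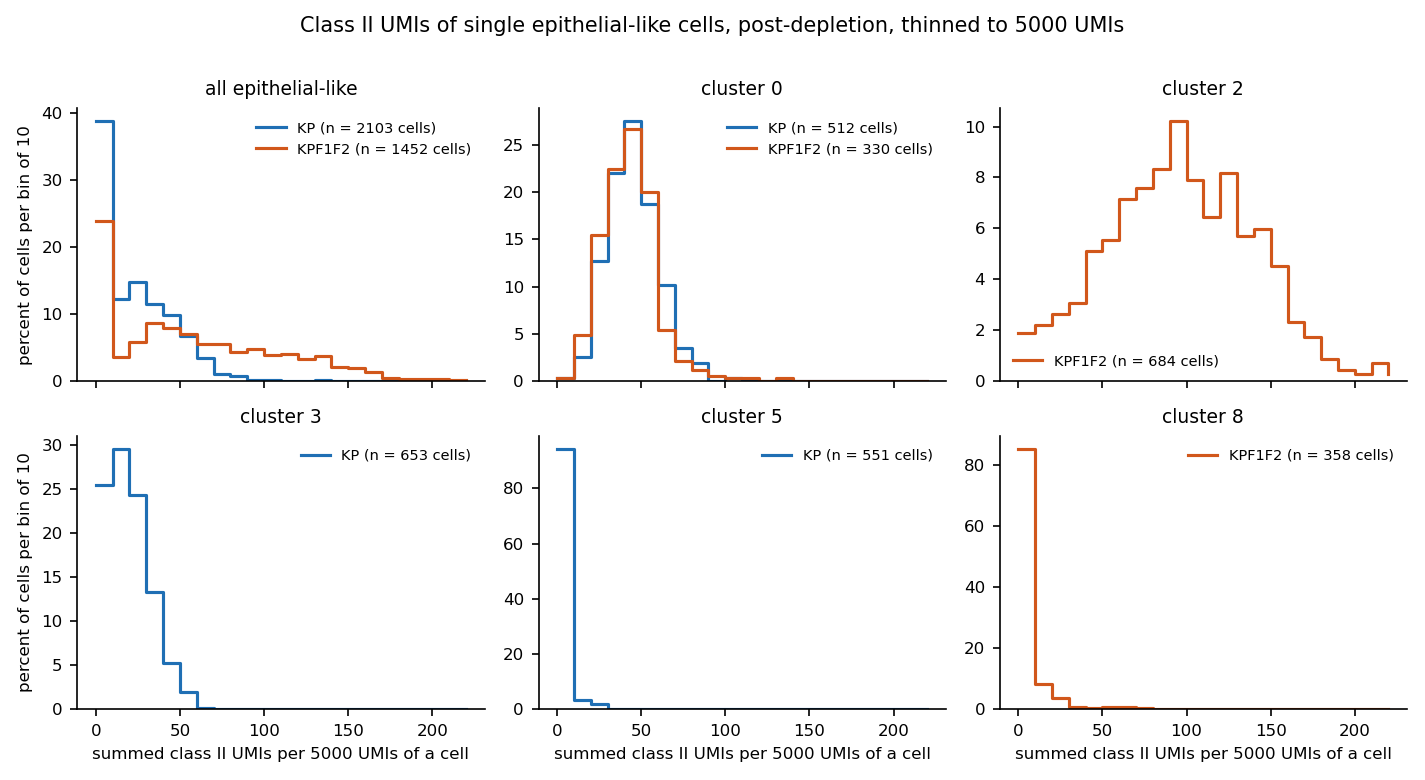
Histograms of summed class II UMIs per epithelial-like cell after thinning to 5000 UMIs, post-depletion libraries, as percent of cells per bin of 10 UMIs, for all epithelial-like cells and for clusters 0, 2, 3, 5 and 8. Lines are libraries. The KP and KPF1F2 lines of cluster 0 overlie each other (medians 43 and 41), cluster 2 is spread around 95.5, and clusters 5 and 8 pile up in the lowest bin.

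The share of thinned cells with at least 1 UMI was higher in KPF1F2 than in KP after depletion for every member. For H2-Ab1 it was 64.0% (61.9 to 66.1) in KP and 77.1% (74.9 to 79.3) in KPF1F2, for H2-Eb1 45.2% and 71.6%, and for Cd74 81.3% and 86.9%. The share in T-like cells before depletion, a measure of free RNA in libraries that held far more leukocytes, was 15.7% and 14.7% for H2-Ab1 and 43.2% and 38.4% for Cd74. Fibroblast-like cells of the post-depletion libraries, which also should lack these genes, had an H2-Ab1 UMI in 10.3% (4.53 to 19.2) of thinned cells in KP and 9.67% (6.71 to 13.4) in KPF1F2, at median depths of 9239 and 14752 UMIs. Clusters 5 and 8 were at 16.0% (13 to 19.3) and 16.5% (12.8 to 20.7), at median depths of 16601 and 33511 UMIs. Their intervals overlap those of the fibroblast-like cells, which does not show that the shares are equal. For the members summed, the 90th percentile per thinned cell was 6 UMIs in cluster 5 and 14 in cluster 8. In fibroblast-like cells it was 2 in KP and 1 in KPF1F2. The parts of low expression and of free RNA in these values were not tested.

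The exchange factor genes followed, with H2-DMa in 26.5% and 41.1% of cells, H2-DMb1 in 32.6% and 49.9%, and H2-DMb2 in 5.94% and 15.6%. H2-Aa was found in 59.6% and 75.9%. Ciita was found in 5.18% of KP and 7.23% of KPF1F2 thinned cells, and in 12.7% and 25.3% of unthinned cells, a gap that shows how far this scarce RNA depends on depth. Cluster 2 had Ciita in 11.8% of thinned and 36.7% of unthinned cells. Cluster 8 had it in 0 of 358 thinned cells, which at that depth allows up to 0.838% of cells with a UMI and sets no limit on cells that express it, and in 3.07% of unthinned cells. In T-like cells Ciita was found in 0.875% in KP and in none of 177 in KPF1F2.

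Leukocyte RNA was measured in the same epithelial-like cells with 15 genes of leukocytes. Ptprc, which encodes CD45, had 14 UMIs in KP and 21 in KPF1F2 after depletion, and 112 and 127 before. Of the 15 genes, 3 were at 0 in KP and 2 in KPF1F2 post-depletion, Flt3 and Xcr1 in both. Without Lyz1, which epithelial-like cells here made in quantity, the list summed to 17.0 and 21.8 CPM after depletion and to 124 and 370.2 CPM before. Most of the sum after depletion was Cd79b, at 14.0 CPM in KP and 13.2 in KPF1F2, the only listed gene lower in KPF1F2. Before depletion it was at 22.6 and 63.8 CPM. Cd79a, also a B cell gene, fell further, from 12.0 and 34.5 CPM before to 0.426 and 0.624 after. The sums after depletion thus rest mostly on a gene that did not track Cd79a, and measure leukocyte RNA poorly. Every other listed gene with a UMI was higher in KPF1F2, such as Cd52 with 82 and 167 UMIs. Genes of myeloid cells were few in UMIs but unequal: C1qa had 2 in KP and 35 in KPF1F2, C1qb 2 and 33, and Tyrobp 2 and 25. The near-equal sums thus do not mean that each kind of leukocyte RNA was equal. There were 1347 and 3026 H2-Ab1 UMIs per Ptprc UMI in epithelial-like cells after depletion, against 16.9 and 19.1 in macrophage-like cells, 29.1 and 30.3 in type 1 dendritic-like cells and 7.70 and 6.52 in B-like cells. The leukocyte values are from whole cells before depletion. Whether free RNA keeps the ratio of whole cells was not tested.

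Among leukocytes, which are read from the pre-depletion libraries, type 1 dendritic-like cells had the highest summed class II level of the named classes taken whole, followed by macrophage-like cells with C1q genes, migratory dendritic-like cells and B-like cells. The sums were 58956 CPM in KP and 72533 in KPF1F2 for type 1 dendritic-like cells (36 and 57 cells), 40746 and 48401 for macrophage-like cells (449 and 559), 29192 and 43541 for migratory dendritic-like cells (30 and 29) and 31030.1 and 35922 for B-like cells (169 and 359). The order of migratory dendritic-like and B-like cells differs between the libraries. Monocyte-like cells followed at 11530 and 12581 CPM. All of these lay above the epithelial-like sum before depletion in KP, 5258 CPM, while in KPF1F2 the epithelial-like sum of 12629 CPM was level with the monocyte-like one.

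Type 1 dendritic-like cells, which carry Xcr1 and are known for cross-presentation, held Cd74 at 26270.0 CPM in KP and 35213 in KPF1F2. H2-Aa was at 10494 and 12528 CPM, H2-Ab1 at 12874 and 11193, and H2-Eb1 at 6560.4 and 10412. Ciita was at 95 and 66.3 CPM, its highest level in any named class of at least 20 cells in KP. None of the 8 members was 2-fold higher in KPF1F2, where 2.93% of genes were, and the median log2 fold was 0.30.

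Macrophage-like cells held H2-Aa at 6577 CPM in KP and 8206 in KPF1F2, H2-Ab1 at 7462 and 6644, and Cd74 at 20864 and 25088. H2-Eb1 was at 3970.4 and 6451 CPM, a log2 fold of 0.70. None of 8 members was 2-fold higher, where 1.78% of genes were, and the median was 0.29. H2-DMa, at 1049 and 925.5 CPM, was lower in KPF1F2. The class joins clusters 6 and 14, which ranked alike in both libraries, with sums of 32989 and 39401 CPM in cluster 6 and 64696 and 88546 CPM in cluster 14. Cluster 14, led by C1qa, C1qc and C1qb, taken alone was thus above the type 1 dendritic-like cells. No cluster was named type 2 dendritic-like. Of the markers listed for that type, Mgl2 was among the leading genes of cluster 14 and Ccl17 among those of cluster 6. The part of such cells in the macrophage-like sums was not tested.

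Migratory dendritic-like cells had Cd74 at 15734 and 26272 CPM, and none of 7 measured members was 2-fold higher, where 3.99% of genes were (median log2 fold 0.57). B-like cells, for which class II is a lineage trait, held H2-Aa at 5514 and 5635 CPM, H2-Ab1 at 4587 and 3265, and Cd74 at 16611 and 21722. None of their 8 members was 2-fold higher, where 1.60% of genes were, and the median log2 fold was −0.03. Ciita in B-like cells was at 79.0 CPM in KP and 39.7 in KPF1F2, from 60 and 69 UMIs (ratio 0.502, 0.350 to 0.722). In monocyte-like cells none of 6 measured members was 2-fold higher, where 5.17% of genes were (median 0.23).

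Alveolar macrophage-like cells were the exception among the leukocytes in size of difference. These resident macrophages of the airspace are poor presenters, and in KP (766 cells) they held H2-Aa at 513 CPM, H2-Ab1 at 397, H2-Eb1 at 142 and Cd74 at 1907. In KPF1F2 (662 cells) the values were 1515, 1086, 710.5 and 4756 CPM. Of 6 measured members 5 were at least 2-fold higher in KPF1F2, where 1.91% of genes were, and the median log2 fold was 1.38.

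H2-DMa was the member of alveolar macrophage-like cells that did not differ to that extent, at 348 and 389.7 CPM, while H2-DMb1 was at 177 and 413. H2-DMb2, at 13.4 and 9.85 CPM, was lower in KPF1F2 and did not reach the minimum. Thinned cells had medians of 6 class II UMIs in KP and 37 in KPF1F2. Within cluster 1, which holds most of this class, the sums were 3502 and 8955 CPM, and in cluster 31 they were 4138 and 8555 CPM. The part of free RNA from other cells in this difference was not tested. In T-like cells of the same libraries Cd74 was lower in KPF1F2, at 254 and 188 CPM, and H2-Eb1 higher, at 23.3 and 38.2 CPM (ratio 1.64, 1.22 to 2.21).

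Endothelial-like cells before depletion also held more class II RNA in KPF1F2, at low levels. H2-Aa was at 192 CPM in KP (129 cells) and 481 in KPF1F2 (83 cells), H2-Ab1 at 219 and 452, and Cd74 at 828 and 2035. Of 6 measured members 5 were at least 2-fold higher, where 4.78% of genes were, and the median log2 fold was 1.17. In thinned cells, of which 80 and 37 remained, the medians were 2 and 7 UMIs. Fibroblast-like cells after depletion had a median of 0 in both libraries.

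**Figure D3:**
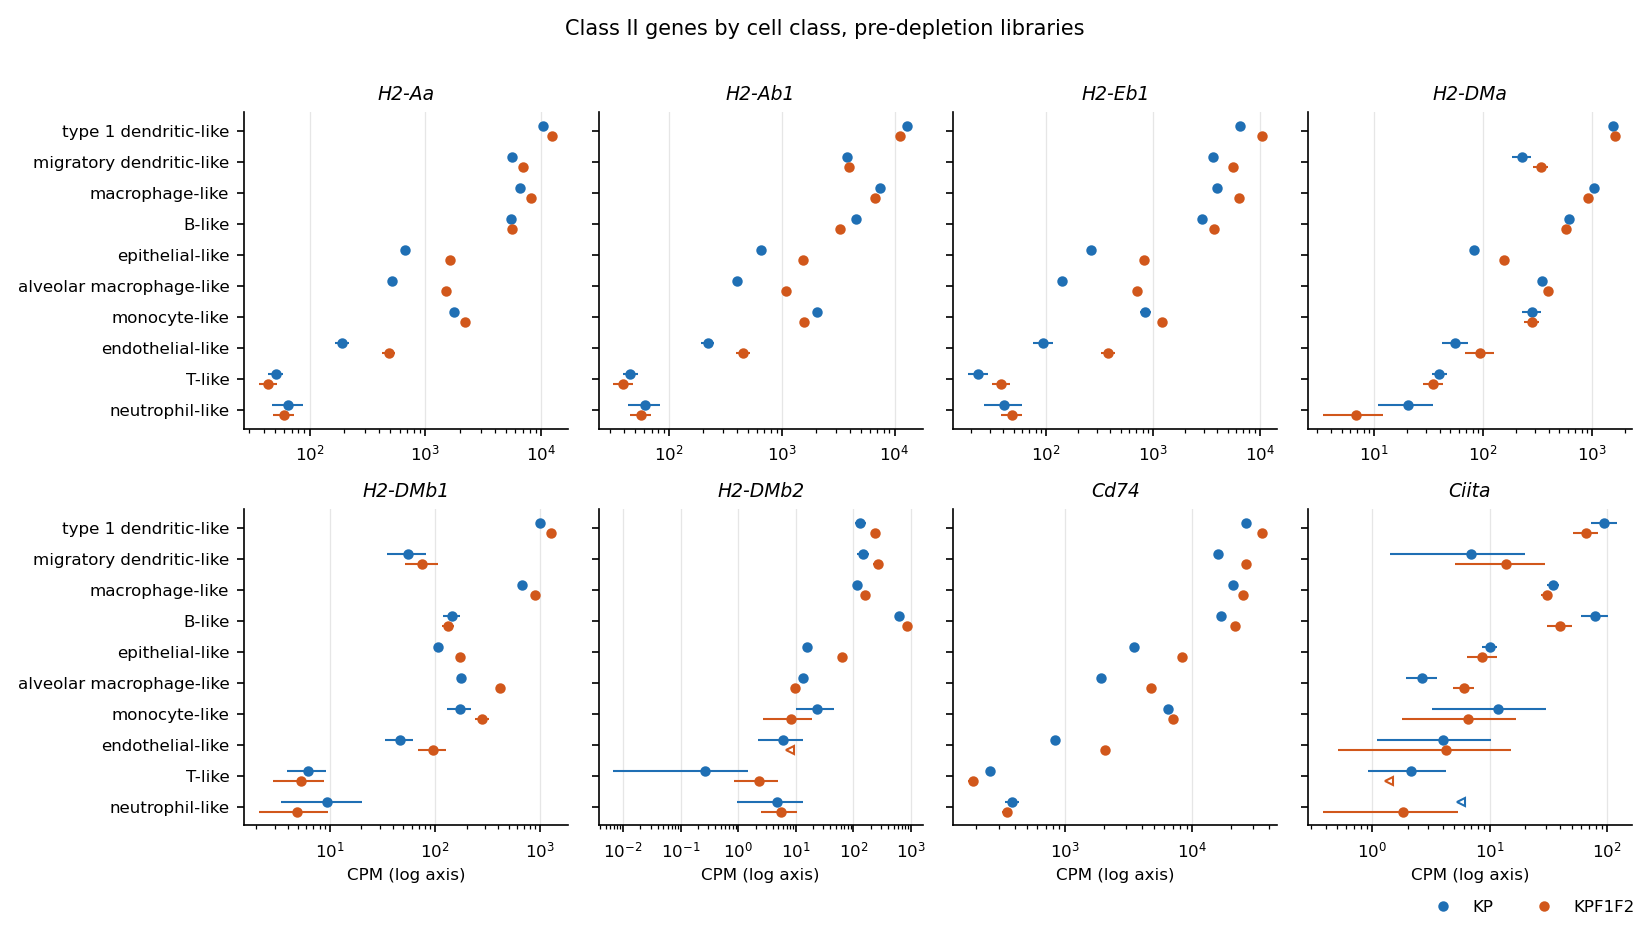
Level of each class II gene (CPM, log axis) by cell class in the pre-depletion libraries, classes with at least 20 cells. Points are summed cells of 1 library, bars are exact 95% Poisson intervals, and an open triangle marks the upper limit of a gene with 0 UMIs. For H2-Aa, H2-Ab1, H2-Eb1 and Cd74, dendritic-like, macrophage-like and B-like cells sit at the right with genotypes less than 2-fold apart. That order does not hold for H2-DMb1 in B-like and migratory dendritic-like cells, nor for H2-DMa and Ciita in migratory dendritic-like cells. In epithelial-like, alveolar macrophage-like and endothelial-like cells the KPF1F2 points of H2-Aa, H2-Ab1, H2-Eb1 and Cd74 lie to the right of KP.

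**Figure D4:**
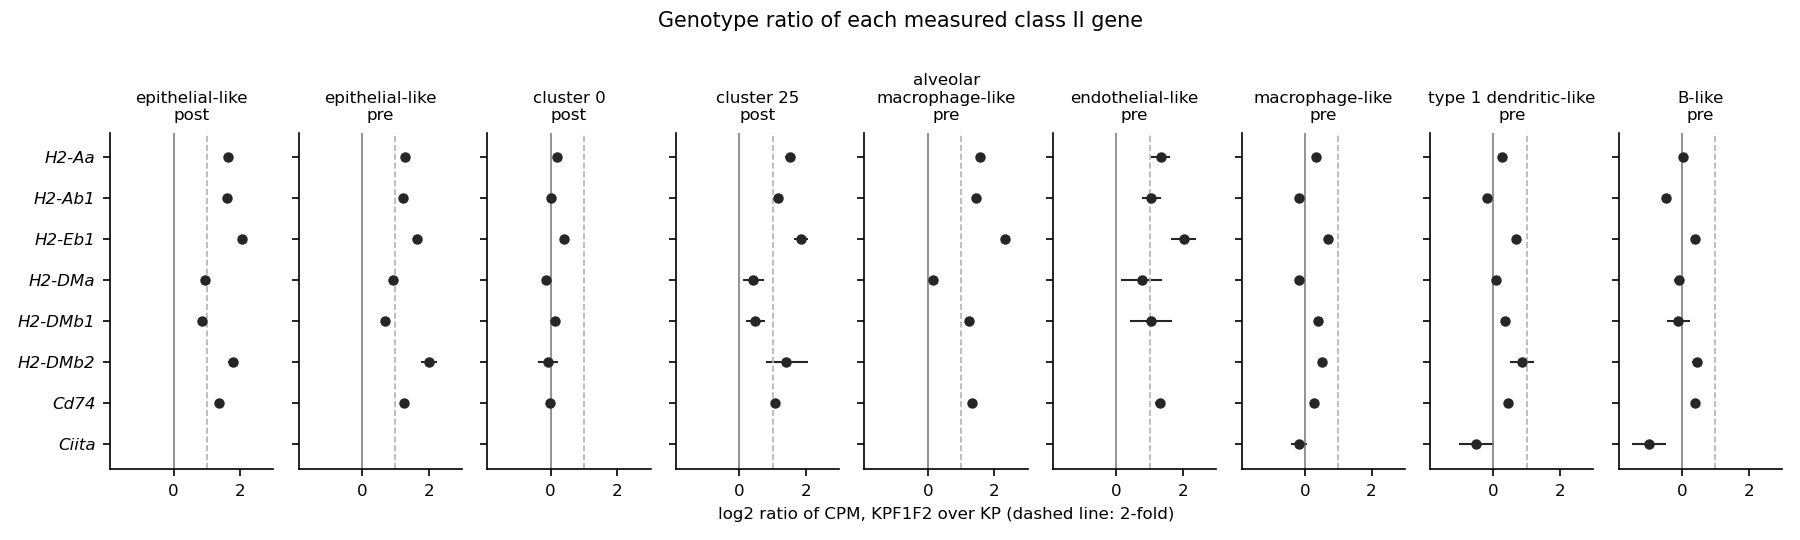
Log2 ratio of CPM, KPF1F2 over KP, of each measured class II gene in 9 cell classes or clusters; bars are exact 95% intervals for the ratio of counts, the solid line marks equality and the dashed line 2-fold. Points of cluster 0 and of the type 1 dendritic-like, macrophage-like and B-like cells lie left of the dashed line. Most points of epithelial-like, cluster 25, alveolar macrophage-like and endothelial-like cells lie right of it, except H2-DMa and, in the epithelial-like and cluster 25 panels, H2-DMb1.

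The balance between the paired genes varied with the cell class. H2-DMb2 made up 81.2% (77.8 to 84.3) of the H2-DMb1 plus H2-DMb2 UMIs of B-like cells in KP and 86.4% (84.7 to 88.0) in KPF1F2, and 73.0% and 78.1% in migratory dendritic-like cells. In type 1 dendritic-like cells it was 11.9% and 16.0%, in macrophage-like cells 14.5% and 15.4%, and in alveolar macrophage-like cells 7.02% and 2.33%. B-like and migratory dendritic-like cells thus used chiefly H2-DMb2 RNA, and the other classes with 50 or more UMIs of the pair chiefly H2-DMb1.

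Epithelial-like cells were on the H2-DMb1 side, with an H2-DMb2 share after depletion of 11.9% (10.9 to 13) in KP and 20.3% (19.5 to 21.2) in KPF1F2. The share was 15.4% and 13.6% in cluster 0, 23.6% in cluster 2 and 9.19% in cluster 3. In the keratin-led clusters it was 4.35% in cluster 5 and 2.47% in cluster 8. Of these 5 clusters the share was highest in cluster 2, which was richest in class II RNA, and lowest in clusters 5 and 8, which were poorest. In the cycling cluster 25 it was 15.2% in KP and 25.5% in KPF1F2.

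H2-Eb1 made up a larger part of the H2-Aa plus H2-Eb1 UMIs in KPF1F2 than in KP in 9 of 9 classes before depletion, with medians of 33.0% and 44.0%. It was 34.1% and 39.7% in B-like cells, 37.6% and 44.0% in macrophage-like cells and 21.7% and 31.9% in alveolar macrophage-like cells. In epithelial-like cells it was 28.3% and 33.5% before depletion and 28.1% and 34.2% after. H2-Ab1 as a part of H2-Aa plus H2-Ab1 went the other way and was higher in KPF1F2 in 1 of 9 classes, with medians of 49.4% and 44.7%. The classes of a library share their mice, and the mice were of mixed 129/B6 stock, so the part of the class II alleles that each library carried in these ratios was not tested.

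**Figure D5:**
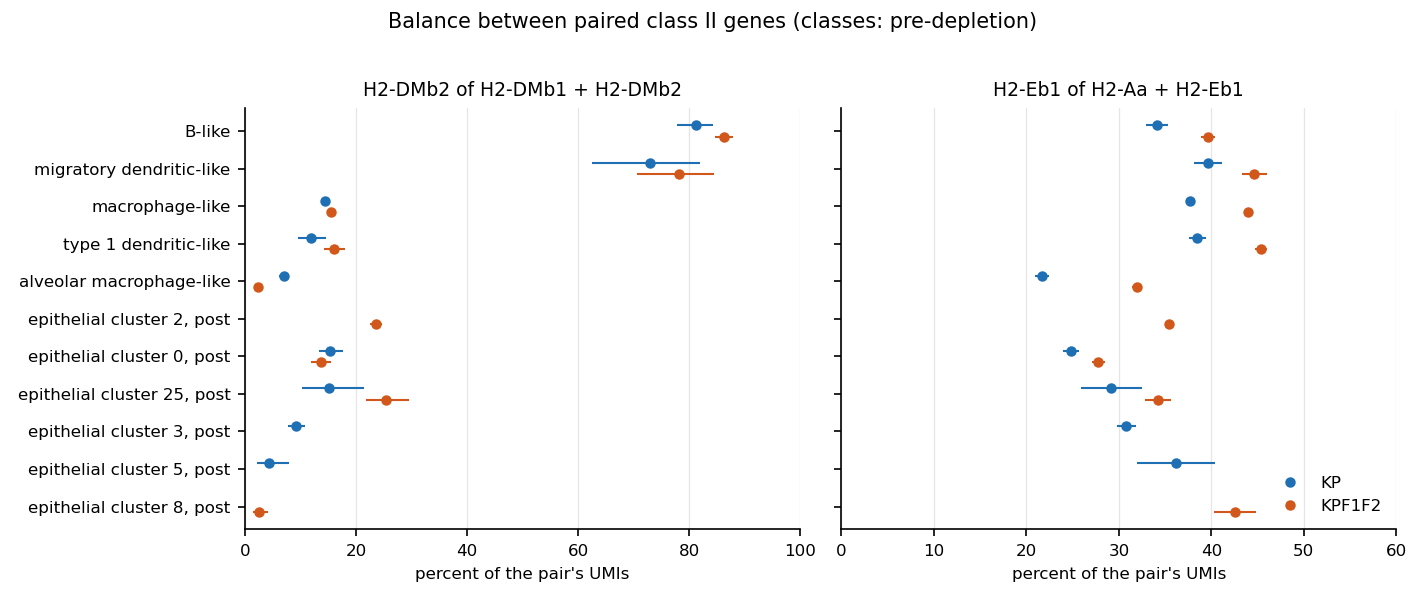
Share of H2-DMb2 in the H2-DMb1 plus H2-DMb2 UMIs (left) and of H2-Eb1 in the H2-Aa plus H2-Eb1 UMIs (right), in percent, for leukocyte classes before depletion and epithelial clusters after it. Bars are exact 95% binomial intervals, and units with fewer than 50 UMIs of a pair are not drawn. B-like cells (81.2% and 86.4%) and migratory dendritic-like cells (73.0% and 78.1%) lie far above the other units on the left, and on the right KPF1F2 lies above KP in each class and cluster drawn for both genotypes.

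Other genes of the class II locus were read beside the members. H2-Oa and H2-Ob, the chains of H2-O, which restrains H2-M in B cells, were at 349 and 393 CPM in B-like cells of KP and at 352 and 443 CPM in KPF1F2. In epithelial-like cells after depletion H2-Oa went from 24 UMIs in KP to 265 in KPF1F2, or 0.568 and 5.70 CPM (ratio 10.1, 6.61 to 16.0). H2-Eb2, a second beta chain gene, had 31 and 235 UMIs, while H2-Ob had 1 and 4. In cluster 2, H2-Oa stood at 13.4 CPM, H2-Eb2 at 10.9 and H2-Ob at 0.228. These 3 genes did not reach the minimum in epithelial-like cells.

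The genes around the members were counted by lists in epithelial-like cells, where 4.91% of genes were at least 2-fold higher in KPF1F2 after depletion. Of 8 genes for factors of class II transcription, such as RFX and NF-Y subunits, 3 were measured and none was 2-fold higher, with a median log2 fold of −0.09: Rfxap was at −0.26, Nfyb at −0.09 and Creb1 at 0.11. By cluster the list summed to 140.0 CPM in cluster 2, 129 in cluster 3, 141 in cluster 5 and 137 in cluster 8, so it did not track the class II level. Of 4 genes of class II turnover, 2 were measured: March8, a ubiquitin ligase, at −0.42 and Sppl2a, which cleaves the Cd74 stub, at 0.22. Of 10 lysosomal processing genes, 9 were measured and none was 2-fold higher (median −0.12), with Lamp2 at 0.57, Ctsd at 0.38 and Ctsb at 0.32, and, the other way, Ctsl at −0.79 and Ifi30 at −0.55.

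Of 17 genes of the interferon gamma axis 8 were measured, and all 8 had log2 folds above 0, as did 57.3% of all genes compared, with a median of 0.40. Irf1 was at least 2-fold higher, at 1.13, but at 19.4 CPM in KP and 43.7 in KPF1F2 it reached the minimum through KPF1F2 alone, and none of the other 7 was. Stat3 was at 0.66 and Socs3 at 0.47. Ifng itself had 0 UMIs in epithelial-like cells of both post-depletion libraries. Among genes under the minimum mean, singled out after their values were seen, Gbp2, induced by interferon gamma, was at 3.07 CPM in KP and 36.3 in KPF1F2. Irf8, a transcription factor of the same list, went the other way at 8.73 and 0.689 CPM (ratio 0.0790, 0.0532 to 0.113), while before depletion it was at 9.82 and 16.4 CPM.

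Of 12 interferon-stimulated genes 5 were measured and 5 were at least 2-fold higher (median 1.50), with Ifi27l2a at 3.06, Bst2 at 1.61 and Ifitm3 at 1.50. Ifi27l2a and Irf7 reached the minimum through KPF1F2 alone, and 3 of the other 3 were 2-fold higher. By cluster this list summed to 161 CPM in KP and 194 in KPF1F2 for cluster 0, 637 and 529 for cluster 19, 269 and 610 for cluster 25, and 1007 in cluster 2. In cluster 19, 0 of 8 measured genes were 2-fold higher, where 7.09% of genes were. It was 1 of 2 in cluster 0, where 2.59% were, and 2 of 4 in cluster 25, where 6.44% were. Of 15 MHC class I and peptide loading genes 13 were measured and 11 were at least 2-fold higher (median 1.30), with H2-Q7 at 2.11, H2-Q6 at 2.07, B2m, the class I light chain, at 1.65 and H2-T22 at −0.01. H2-Q6, Tap1 and Tap2 reached the minimum through KPF1F2 alone, and 8 of the other 10 were 2-fold higher. Close paralogs such as H2-Q6 and H2-Q7 may exchange reads. Before depletion the medians were 1.91 for the interferon-stimulated list (7 of 7 measured genes 2-fold higher) and 1.27 for the class I list (9 of 13), where 5.11% of all genes were 2-fold higher. Ifit1, Ifit3 and Rsad2 of the first list and Tap1 of the second had reached the minimum through KPF1F2 alone, which leaves 4 of 4 and 8 of 12.

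Class I and class II RNA followed each other by cluster only in part. The class I list summed to 3862 CPM in KP and 4605 in KPF1F2 for cluster 0 and to 6888 CPM in cluster 2, where class II was also highest. In clusters 3, 5 and 8 it was 1044, 1278 and 2235 CPM, so the keratin-led cluster 5 exceeded cluster 3 in class I RNA while its class II sum was 463 CPM against 4011 CPM. In cluster 0 none of 13 measured class I genes was 2-fold higher in KPF1F2, where 2.59% of genes were (median 0.11). In the cycling cluster 25 11 of 13 were, where 6.44% of genes were (median 1.76), and 8 of the 10 that did not reach the minimum through KPF1F2 alone.

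Of the costimulation list of 9 genes, 1 was measured (Tnfsf9, at −0.38), and no other gene of the list reached the minimum. Of 6 genes for receptors or partners of Cd74 and class II, Mif, a ligand of Cd74, was at −0.59 and Cd44, its co-receptor, at −0.40.

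Within single cells the members varied together. After thinning, Pearson's r between H2-Ab1 and Cd74 on a log scale was 0.80 across 2103 KP cells and 0.90 across 1452 KPF1F2 cells post-depletion. It was 0.48 and 0.44 within cluster 0 and 0.81 within cluster 2. Cells of a library share its free RNA and its clusters, so these are descriptions.

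Over 21 sums of epithelial clusters by library, each member's log level followed the mean of the other 7 with r of 0.912 (Ciita) to 0.992 (H2-DMa). The 6 genes most like the members over these sums, of 5617 compared (median r 0.10), were Itm2a (0.962), Ptprf (0.956), Inpp5b (0.954), Rogdi (0.952), Msrb3 (0.952) and Nrp1 (0.950). Over 31 sums of cell classes by library the most like of 6275 genes were Ifi30 (0.851), Cd83 (0.791), Tbc1d9 (0.779), Pkib (0.778), Fgd2 (0.777) and Dnase1l3 (0.771). Sums of 1 library share its depth and mice. No gene was on both lists of 6.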

How the data were processed

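Droplet single-cell RNA sequencing (10x Genomics 3′ version 3.1, per the labels' protocols) gave 4 matrices of UMI counts per gene and barcode, which the authors made using Cell Ranger 6.0.0 (per the file headers) and mm10 (per the submitters' processing notes). Annotation, strand and intron settings were not found in the labels or headers. UMIs count molecules at 3′ ends and were not divided by gene length. Cells with at least 1000 UMIs, 500 genes and at most 20% mitochondrial UMIs were kept. The doublet caller marked 1 to 4 cells per library and was taken not to have worked, so the top-scoring 0.8% of cells per 1000 barcodes were removed (91 to 247 per library). Libraries shared 1 to 4 barcodes per pair.

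Cells were clustered without the 8 members, H2-Oa, H2-Ob and H2-Eb2 (scanpy 1.11.5, 2000 variable genes, 30 components, 15 neighbours, Leiden resolution 1, igraph 0.11.9), which gave 40 clusters. A cluster was named from at least 3 raised markers, so names here are rebuilt and are called X-like. Besides 10 epithelial-like clusters of full depth, 3 whose cells were shallow for their library were set apart (6.31%, 0.326%, 23.9% and 11.4% of the cells kept in KP pre-depletion, KPF1F2 pre-depletion, KP post-depletion and KPF1F2 post-depletion).

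UMIs were summed per library and class and scaled to CPM. Log2 folds are KPF1F2 over KP within a depletion state with 1 CPM added, for genes with a mean of at least 20 CPM. Counting intervals are exact 95% (Poisson for CPM, conditional binomial for ratios, Clopper-Pearson for shares), and a count of 0 is given a limit of 3 counts. The calculations were tested on simulated data. TMM factors came from edgeR 4.0.16. All 8 members were named, with up to 3 genes of a list in its main direction and 2 the other way, and the 6 genes most correlated with the members. Members and lists were chosen with earlier results of these data known. Promoters are from RefSeq, gene positions from GENCODE release M21.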

Additional observations from a re-analysis of the deposited data

Results flagged for a closer look

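Several members were lower in KPF1F2 in one cell class and higher in another before depletion. With 1 library per group, these differences between classes were not tested. H2-Ab1 had a log2 fold of −0.49 in B-like cells and 1.45 in alveolar macrophage-like cells. H2-DMa was at −0.18 in macrophage-like cells and 0.91 in epithelial-like cells. Cd74 was at −0.43 in T-like cells, which should lack the gene, and 1.32 in alveolar macrophage-like cells.

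Cells of the shallow epithelial clusters, which entered comparisons only as an alternative setting, also held class II RNA. The members summed to 10513 CPM in the 281 such cells of KPF1F2 post-depletion and to 2128 CPM in the 805 of KP post-depletion. These compare with 10085 and 3713 CPM in the epithelial-like cells of those libraries.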

How the results depend on the processing

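No paired analysis was possible because each group holds 1 library and no test was made. After depletion the members' median log2 fold of 1.62 became 1.55 with TMM factors, 1.57 with median-ratio size factors, 1.58 with equal weight per cell, 1.35 with 10 CPM added, 1.49 with no CPM minimum, 1.58 with at most 10% mitochondrial UMIs, 1.34 without cells with a leukocyte UMI (1.32 where Lyz1 was not counted) and 1.66 with shallow clusters kept. It was 2.15 without cluster 0, 0.0081 in cluster 0 alone and 0.14 without cluster 2. Before depletion the median of 1.25 became 1.11 with TMM and 1.11 with size factors, 1.37 with equal weight, 1.29 with doublets kept, 1.21 with 10% mitochondrial UMIs, 1.21 and 1.30 at resolutions 0.5 and 2, 1.43 in cells with a CRE-ERT2 UMI, 1.34 without clusters low in it, 1.44 without cells with a leukocyte UMI (1.44 where Lyz1 was not counted), 1.40 and 1.27 after subtracting 5% of a leukocyte or a low-barcode profile, 1.30 with shallow clusters, 2.02 without cluster 0, 0.27 in cluster 0 alone and 0.30 without cluster 2. The 5 members at least 2-fold higher became 0 in cluster 0 alone in both states, and 0 after and 1 before depletion without cluster 2. The summed log2 ratio of 1.44 became 1.38 with TMM, 1.39 with size factors, 1.46 with doublets, 1.42 with 10% mitochondrial UMIs, 1.45 at resolution 0.5, 1.54 in cells with a CRE-ERT2 UMI, 1.43 without clusters low in it, 1.32 without cells with a leukocyte UMI (1.29 where Lyz1 was not counted), 1.91 without cluster 0, 0.0295 in cluster 0 alone, 0.17 without cluster 2 and 1.48 with shallow clusters.

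Signs turned in cluster 0 alone after depletion for H2-DMa (−0.14), H2-DMb2 (−0.0718), Cd74 (−0.0240) and Ciita (−0.28) and before it for H2-Ab1 (−0.0042), and without cluster 2 after depletion for H2-DMa (−0.0845) and Ciita (−0.53). Before depletion Ciita (−0.18) became 0.11 in cells with a CRE-ERT2 UMI, 0.12 without cluster 0 and 0.0373 without cells with a leukocyte UMI where Lyz1 was not counted. Choices on clusters 0 and 2, shallow clusters and Lyz1 were made after seeing the data. The cause was not tested, beyond fewer cells entering. Of 328 alternative values of single members 184 stayed within their counting interval; of 128 thinned shares 33 moved by over 1.5 times, as did 0 of 70 class levels. Subtraction of a leukocyte profile was not run after depletion, where 4 KP and 20 KPF1F2 leukocyte-like cells remained.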
